A study of Mus musculus with 16 samples.

Results

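The libraries described here are the 8 of a series of 16 that test the loss of importin alpha3, compared after separating them by how mature the embryo's blood was. All come from lumbar dorsal root ganglia, which house the cell bodies of the body's sensory neurons next to the spinal cord, taken from untreated C57BL/6 mouse embryos at embryonic day 13.5 and sequenced as polyadenylated RNA. In 4 libraries the genotype was importin alpha3 knockout (KO 42, 50, 75 and 81, by their label numbers), and in 4 it was wild type from the same line (WT 45, 54, 55 and 79). The other 8 libraries belong to an importin beta1 line and enter only where stated. The labels do not say how the knockout allele was made, in which cells it was lost, or whether each library was a separate embryo, so p-values measure the spread between these libraries, which may be partly technical.

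Libraries were placed in blocks chosen by 1 measured value, log2 of the Hbb-bh1 read count over the Hbb-y read count. Both genes encode beta-type globins of embryonic red cells, and red cells change the globins they make as the embryo matures. Libraries above -5.5 formed the early block and those below it the late block. The ratio was -5.10 in KO 42, -3.71 in KO 81, -4.79 in WT 45 and -4.10 in WT 79, which form the early block. It was -6.81 in KO 50, -6.03 in KO 75, -6.93 in WT 54 and -6.71 in WT 55, which form the late block. KO 42 lies just inside the cut and KO 75 just outside it. Each block therefore holds 2 knockouts and 2 wild types, and these ratios are a description, as are the levels of red-cell genes, which the same cells supply.

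Importin alpha3, encoded by Kpna4, is an adaptor that binds proteins carrying a nuclear localisation signal and, joined to importin beta1 (Kpnb1), carries them through the nuclear pore. In neurons such adaptors also act in axons, where they take part in carrying injury signals back to the cell body. At this age a dorsal root ganglion holds newly born sensory neurons, dividing progenitors and glial precursors, so the balance of dividing and maturing cells changes quickly with developmental time.

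Total counts were 22896330 to 24850289 reads in the knockouts and 19682595 to 24026025 in the wild types. The summed level of 24 sensory neuron genes lay between 11920 and 22220 CPM (read counts scaled to a common library total) in every library, as the labelled tissue would hold. All 4 wild types, KO 50 and KO 75 had reads from 4 Y-linked genes, at summed levels of 100.1 to 144.1 CPM, and had Xist, transcribed from an inactive X, at 0.478 to 2.79 CPM. KO 42 and KO 81 had Y-linked sums of 0.0411 to 0.322 CPM and Xist at 794 to 919.99 CPM. In the early block, embryo sex and genotype therefore cannot be told apart, while all 4 late libraries carried Y-linked reads.

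Kpna4 (chromosome 3, 69072221 to 69127092, GRCm38) was almost absent from the knockouts in both blocks. Its level was 0.722, 0.959, 0.609 and 1.13 CPM in KO 42, 50, 75 and 81, against 79.4, 72.8, 67.5 and 81.7 CPM in WT 45, 54, 55 and 79. The groups did not overlap. The knockout mean of 0.855 ± 0.235 (SD, n = 4) was 1.135% of the wild-type mean of 75.4 ± 6.44 (SD, n = 4), and the exact two-sided permutation test gave p = 0.0286, the smallest its 70 splits allow. In the model with the block as a covariate Kpna4 was lower by a log2 fold change of -6.46 ± 0.14 (SE), with an adjusted p of 6.74e-07 by edgeR's quasi-likelihood test. The remaining level was alike in both blocks, at 1.15% of wild type in the early block and 1.12% in the late block, and the difference in log2 fold change between the blocks was -0.04 ± 0.31 (edgeR adjusted p = 0.973).

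**Figure D1:**
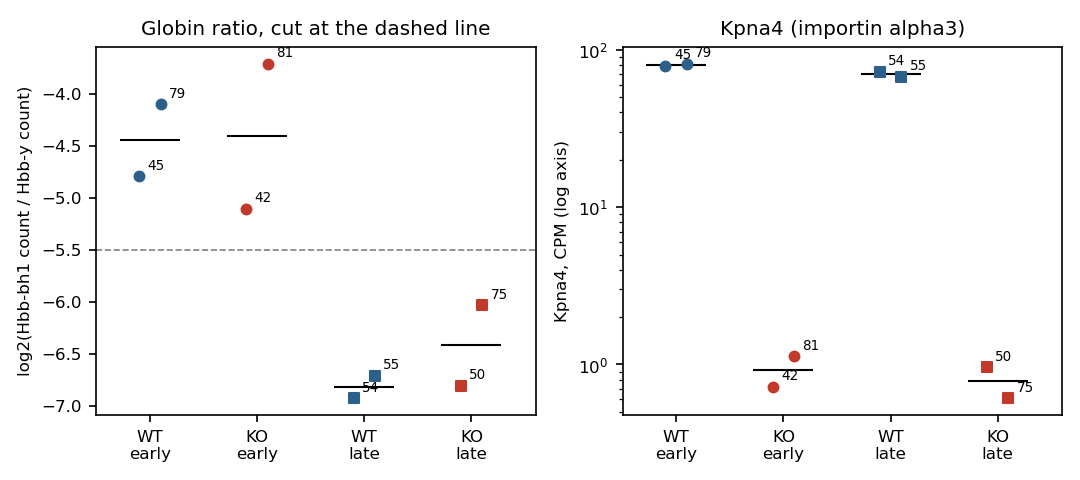
Left, log2 of the Hbb-bh1 count over the Hbb-y count in each library, with the cut at -5.5 dashed; right, Kpna4 in CPM on a log axis. Each point is 1 library with its label number (blue wild type, red knockout; circles early, squares late) and lines are means of 2. The knockouts lie between 0.609 and 1.13 CPM in both blocks and the wild types between 67.5 and 81.7 CPM.

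With the block in the model, Kpna4 was the single gene called among 15628 tested at an adjusted p under 0.05 (0.0064% of genes), as it was among 15096 without the block (0.00662%). At an unadjusted p under 0.05, 1348 genes passed with the block, 8.63% of those tested, against 474 of 15096 without it (3.14%). Of the 1348, 527 were higher (3.37%) and 821 lower (5.25%). Among all tested genes, 499 reached the level of the low-count filter, 0.436 CPM in 2 libraries, through the wild types alone. Only 79 reached it through the knockouts alone. The filter thus favours lower genes in these counts and in the later counts with the block or within a block. The block narrowed the errors: over the 15096 genes tested both ways the median SE of the log2 fold change was 0.112 with it and 0.172 without it.

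The next 4 genes by p were all lower in the knockouts, and none passed the adjusted threshold with the block. Pax8, a transcription factor of spinal inhibitory interneurons, was at 0.722 and 0.712 CPM in the early knockouts against 3.97 and 6.27 in the early wild types. In the late block it was at 0.567 and 0.435 against 1.74 and 2.25 CPM. All 4 knockouts lay below all 4 wild types, and the blocked log2 fold change was -2.44 ± 0.28 (edgeR adjusted p = 0.157). Robo3, a receptor that lets commissural axons of the spinal cord cross the midline, was at 1.04, 0.392, 0.218 and 2.18 CPM in KO 42, 50, 75 and 81 and at 19.2, 5.07, 4.16 and 108 CPM in WT 45, 54, 55 and 79. Its groups did not overlap either, and its log2 fold change was -4.93 ± 0.68 (edgeR adjusted p = 0.263). Slc32a1 encodes the vesicular transporter that loads GABA and glycine. It was at 0.241, 0.174, 0.348 and 0.335 CPM in the knockouts and at 2.96, 0.959, 2.25 and 5.14 CPM in the wild types, in the same order, with a log2 fold change of -3.24 ± 0.45 (edgeR adjusted p = 0.263). Fgf15, a growth factor of the embryonic neural tube, had 0.16 and 0.461 CPM in the early knockouts and no reads in the late ones. Its wild types held 3.53 and 12.7 CPM in the early block and 1.64 and 0.801 CPM in the late block. Slc32a1 and Fgf15 reached the level of the low-count filter, 0.436 CPM in 2 libraries, through the wild types alone. Their direction was thus given by the filter.

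When the globin ratio itself replaced the block as a covariate, a model added after the values had been seen, edgeR called 13 of 15096 genes (0.0861%), all lower in the knockouts. They are Kpna4, Robo3, Pax2, Pax8, Fgf15, Lhx5, Slc32a1, the transcript AI854517, Rfx4, Lamp5, Igfbpl1, Barhl1 and Lhx1. Pax2, Pax8, Lhx1 and Lhx5 are transcription factors of spinal interneurons, Barhl1 of dorsal spinal commissural neurons, and Rfx4 of neural tube progenitors. Pax2 had a log2 fold change of -3.41 (edgeR adjusted p = 0.0289), Lhx5 of -3.16 (0.0339) and Lhx1 of -3.26 (0.0474). Slc32a1, Fgf15 and Barhl1 reached the filter's level of 0.436 CPM in at most 1 knockout. Their direction was thus given by the filter. In this model the filter asked for that level in 4 libraries, the size of each genotype group. Robo3, Pax2, Lhx5 and Lhx1 lay under it in at least 1 knockout, so they too passed only with the wild types. The filter therefore bears on their direction as well. All 13 were also among the 71 genes that DESeq2 called with the block in the same 8 libraries (0.454%). Of the 71, 63 were lower (0.403%) and 8 higher (0.0512%). The count of 13 rests on most of the libraries. Without KO 42, KO 50, KO 75, KO 81 or WT 55, edgeR called 1 gene, Kpna4. It called 3 without WT 79, 9 without WT 45 and 10 without WT 54.

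The promoters of these genes were read for TAATTA, the core recognised by many homeodomain proteins, because several of the genes encode such factors and move together. The motif is its own reverse complement. In RefSeq promoters of GRCm38.p6, from 250 bases before to 50 after the start site, 2 of the 8 genes with an entry held it, of 12 called beside Kpna4 (25%). It stood in 3.36% of the tested genes with an entry, in 6.12% of all genes in the table, and in 0 of 18 genes of the spinal cord list. The match in Robo3 begins 101 bases before the start site of the table's single entry and lies inside the annotated gene (chromosome 9, 37416045 to 37433436). It is shown with the motif in capitals, on the minus strand at chr9:37433259-37433288.
Robo3: ggattaagccctTAATTAcggcgtgatccg
The other match, in Barhl1, lies after its start site. A match of these letters is a description of the sequence and not a binding site.

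Genes of the spinal cord, a tissue next to the ganglion, had a negative median log2 fold change in both blocks. The list holds 24 genes of progenitors, interneurons and motor neurons. Its members, like those of the other lists, were chosen with earlier results of these data known. Shares of a list set beside those of all genes are therefore a description and not a test. The mean CPM of all 24 was lower in the knockouts than in the wild types, 23 were tested, and none passed the adjusted threshold with the block. The filter on low counts bears on the rest: 11 of the 23 reached the filter's level of 0.436 CPM in 2 libraries through the wild types alone, so that their direction was given by the filter. The 11 that reached it in both genotypes are therefore described apart. Of these, 10 had a negative log2 fold change with the block, where 50.9% of all genes did, and 6 passed the unadjusted threshold as lower, where 5.25% of all genes did. Their median log2 fold change was -2.19, against -0.003 over all genes. Over all 23 tested the median was -2.29.

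Within the blocks the 11 spinal cord genes that reached the filter's level in both genotypes had a median log2 fold change of -2.48 in the early block and -1.98 in the late block. Of the 11, 11 were negative early and 6 late, where 50.9% and 49.1% of all genes were. Early, 8 of them passed the unadjusted threshold and were lower (11.3% of all genes did), and late 6 did (1.68% of all genes). In 6 of the 11 the knockouts lay below the wild types in both blocks (4.41% of all genes), and in 3 all 4 knockouts lay below all 4 wild types (1.27%). Late directions were thus split: of all 23 tested, 5 were positive late, up to a log2 fold change of 0.72. Foxp2 was among them, at 0.38. Pax2 was lower in both blocks. It was at 0.762 and 1.89 CPM in the early knockouts against 11.9 and 23.2 in the early wild types. Late levels were 0.392 and 0.914 against 2.1 and 5.31 CPM. Lhx5 was at 1.04 and 1.38 against 5.84 and 18.9 CPM early, and at 0.218 and 0.479 against 1.42 and 2.81 CPM late. Gad2, an enzyme that makes GABA, was at 1.24 and 0.796 against 5.75 and 5.68 CPM early, and at 0.218 and 0.609 against 1.05 and 2.35 CPM late. For Gad1, the other such enzyme, the late groups came close, at 0.349 and 0.0871 against 0.411 and 2.4 CPM. Gad1 is not among the 11, as it reached the filter's level through the wild types alone. With the block, Foxp2 was the tested member with a positive value, 0.05 ± 0.22, and it stood near 10 CPM or above in every library. Pax2, Lhx1, Lhx5, Gad1, Gad2 and Foxp2 were chosen for naming after their values had been seen.

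**Figure D2:**
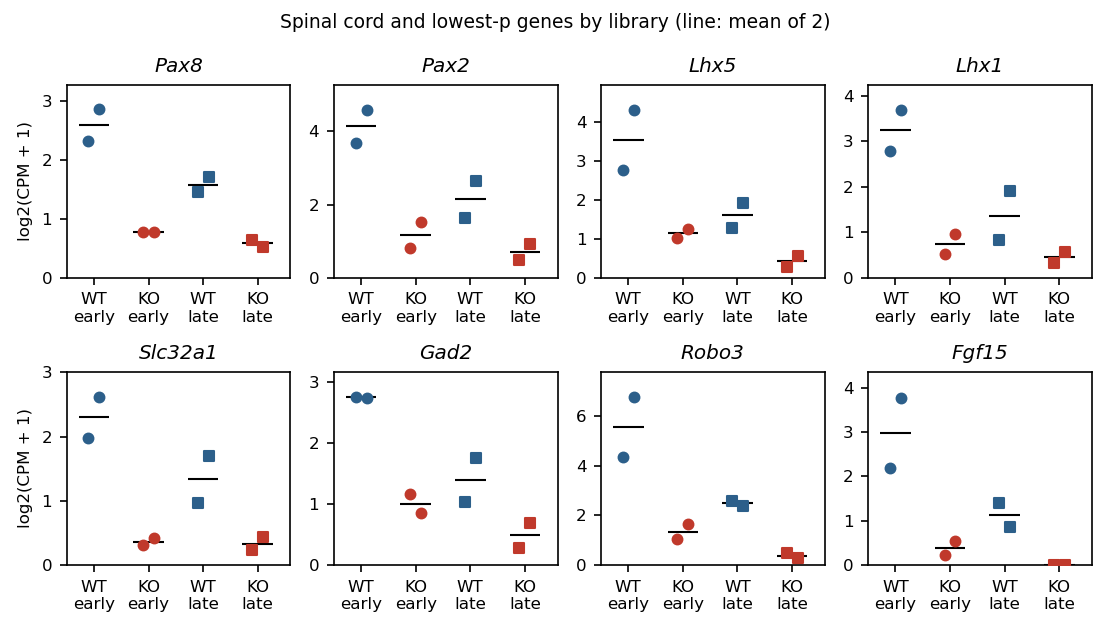
Level of 8 genes in each library as log2(CPM + 1): 6 spinal cord list genes, Robo3 and Fgf15. Points are libraries (blue wild type, red knockout; circles early, squares late) and lines are means of 2. In every panel both knockouts lie below both wild types in each block, and the early wild types are the highest. The 8 genes were drawn for their low p or after their values were seen. Of the 11 spinal cord genes that reached the filter's level in both genotypes, 6 lay below in both blocks (4.41% of all genes). Foxp2, which did not, is not drawn. Slc32a1 and Fgf15 passed the filter on low counts through the wild types alone.

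These levels are low, and in bulk RNA fewer cells of a type cannot be told apart from less RNA in each cell. Of the 23 spinal cord genes summed here, 11 passed the filter through the wild types alone, and they enter every sum below. The summed level was 45.97 and 48.01 CPM in the early knockouts against 122.1 and 169.8 in the early wild types. In the late block it was 21.84 and 34.95 against 30.51 and 46.58 CPM, so the late groups overlapped. Foxp2 makes this overlap: without it, a step chosen after its values were seen, the late sums were 11.59 and 17.63 against 20.97 and 34.91 CPM. The early sums were then 20.94 and 23.63 against 98.4 and 134.2 CPM. No member was without reads in all 4 knockouts, and 5 of the 24 had none in at least 1 knockout. Whether differences in attached spinal tissue between dissections have a part in the result was not tested. Sst, which encodes the peptide somatostatin and is in the nociceptor list, was also lower in both blocks. It was at 1.12 and 0.712 against 7.78 and 6.17 CPM early and 0.131 and 0.74 against 0.822 and 2.65 CPM late.

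Markers of other tissues around the ganglion differed mostly in the early block. The early median log2 fold change was -2.96 over 25 skeletal muscle genes, -2.28 over 17 sympathetic neuron genes, -3.01 over 13 liver genes, -2.60 over 10 red-cell genes, -0.86 over 18 macrophage genes and -0.59 over 22 fibroblast and meningeal genes. Late, the same lists had medians of -0.01, 0.45, 0.12, 0.38, 0.10 and 0.19. Over 22 endothelial and pericyte genes the median was -0.05 early and 0.03 late. With the block the liver, red-cell and macrophage medians were -1.40, -1.15 and -0.42. Without WT 79 they were -0.25, -0.19 and -0.18, so that these 3 lean on that library. Summed muscle genes were at 110.1 and 59.62 CPM in the early knockouts and 692.7 and 486.3 in the early wild types, but at 349.6 and 138.5 against 136.7 and 363.2 late. Pax7, a factor of muscle precursors, was at 0.521 and 0.251 against 2.51 and 5.19 CPM early, and Tnnt2, a troponin of developing muscle, at 2.09 and 1.8 against 16.8 and 16.7. Of the sympathetic genes, summed levels were 556.8 and 538.4 CPM in the early knockouts, 1157 and 670.6 in the early wild types, and 481.5 to 628.2 in the late libraries. Its monoamine transporters Slc18a1 and Slc18a2 had blocked log2 fold changes of -1.38 ± 0.51 and -0.57 ± 0.23 (edgeR adjusted p = 0.565 and 0.57). Summed red-cell genes, which the rule itself touches, were at 1688 and 2921 CPM in the early knockouts against 5267 and 10560 in the early wild types. The part of these tissues in the early differences was not tested.

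Of 17 epidermis genes 16 were tested, and 7 of them reached the filter's level through the wild types alone, so that their direction was given by the filter. The 9 that reached it in both genotypes had a median log2 fold change of -1.24 with the block, -1.98 early and -0.54 late, and 8 of the 9 were negative in each block. None of the 9 passed the unadjusted threshold late, and in 3 the knockouts lay below the wild types in both blocks, where 4.41% of all genes did. Krt17, an epithelial keratin, is among the 7. It was at 0.201 and 0.335 against 2.88 and 2.92 CPM early and at 0.349 and 0.348 against 0.411 and 0.801 CPM late. Trp63, the master regulator of stratified epithelium, had a log2 fold change of -1.73 ± 0.45 and Perp, a desmosomal protein, of -1.0 ± 0.26 (edgeR adjusted p = 0.565 for both). Summed levels overlapped in the late block, at 77.01 and 53.15 against 73.31 and 98.88 CPM.

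Cartilage genes went the other way between blocks: 15 of 16 were positive in the late block, with a median of 0.73, and 13 of 16 negative in the early block, with a median of -0.35. Comp, a cartilage matrix protein, was at 4.57 CPM in KO 75 and between 0.148 and 0.902 CPM in the other 7 libraries. Sox5, a transcription factor of cartilage and neural crest, was at 13.9 and 17.9 against 11.2 and 10.2 CPM late, and at 20.5 and 18.3 against 18.6 and 19.4 early. Hox genes of groups 10 to 13, which mark the rear of the body axis, had a median of -1.24 over 9 tested, 4 of them past the filter's level through the wild types alone, and of -0.73 over the other 5, of which 3 were negative. Hoxc11 was at 0.241, 0.436, 0.0871 and 0.0419 CPM in the knockouts and 3.16, 4.8, 0.451 and 0.346 in the wild types. Hoxc12 reached 0.527 CPM at most, and 3 knockouts and WT 55 had no read of it. Both genes are among the 4 past the filter's level through the wild types alone. The summed level of the 9 was lowest in KO 81 and WT 79, at 3.519 and 14.72 CPM, against 62.55 to 146.4 in the other 6. Without KO 81 and WT 79, libraries set aside after this was seen, the spinal cord list had a median of -2.41 over 24 genes. Part of these genes passed the filter through the wild types alone. In that fit edgeR called Kpna4 and Robo3. Hox groups 4 to 9 had a median of -0.16, with Hoxa9 at 0.43 ± 0.29 and Hoxb9 at -0.61 ± 0.40. Without WT 79, in which Hoxb9 stood at 376 CPM against 65.9 to 115 elsewhere, its value was 0.05.

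Within the early block 29 of 15628 genes were called (0.186%), 2 higher (0.0128%) and 27 lower (0.173%) in the knockouts. Of these, 6 were Kpna4, Xist and the Y-linked Ddx3y, Eif2s3y, Kdm5d and Uty, the last 5 marking the sex of the early knockouts. The other 23 were 22 lower genes and Fam171b. Dlk1, an imprinted membrane protein related to Notch ligands, was at 107 and 108 CPM in the knockouts and 249 in both wild types, a log2 fold change of -1.21 ± 0.10 (edgeR adjusted p = 0.0056). Ampd3, an AMP deaminase of red cells and muscle, was at 4.73 and 4.48 against 17.3 and 19.9 CPM (-2.01 ± 0.18, adjusted p = 0.0108). Bmpr1b, a receptor for bone morphogenetic proteins, was at 2.09 and 1.8 against 9.73 and 9.09 CPM (-2.27 ± 0.22, adjusted p = 0.0146). Acta2, the actin of smooth muscle and early striated muscle, was at 16.2 and 14.7 against 78.8 and 80.7 CPM (-2.37 ± 0.23, adjusted p = 0.0146). Lrrc4b, a synaptic adhesion protein, was at 15.7 and 16.7 against 46.7 and 43 CPM (-1.47 ± 0.14, adjusted p = 0.0146). Fam171b, a membrane protein of unsettled function, was at 229 and 214 against 145 and 143 CPM (0.62 ± 0.08, adjusted p = 0.0486). In each of these 6 the pairs lay close together and far apart from each other, which their choice by low early p favours. Meis1, a homeodomain cofactor of Hox proteins named after its values were seen, fell by 1.35 (edgeR adjusted p = 0.0146).

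Of the 22 lower genes, 15 also had a negative late log2 fold change, where 49.1% of all genes did, and 7 a positive one. The 22 were not split by filter. They include Krt17, which reached the filter's level through the wild types alone, so the late signs are partly given by the filter. Their median was -2.09 in the early block, by which they were chosen, and -0.10 in the late block. Late, 4 were lower at an unadjusted p under 0.05, namely Pax8, Shank1, Lrrc4b and Barhl2 (1.68% of all genes were). Shank1, a scaffold of the postsynaptic density, was at 6.82 and 7.54 against 32.7 and 34.2 CPM early and at 8.67 and 8.57 against 13.9 and 23.5 late. The early calls depend on single libraries: without KO 42 or KO 81 6 of the 29 remained, without WT 54 or WT 55 13 did, without WT 79 14 did among 28 calls, and without WT 45 all 29 stood among 1045 calls. A fit of the 4 early libraries alone called 17 genes.

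**Figure D3:**
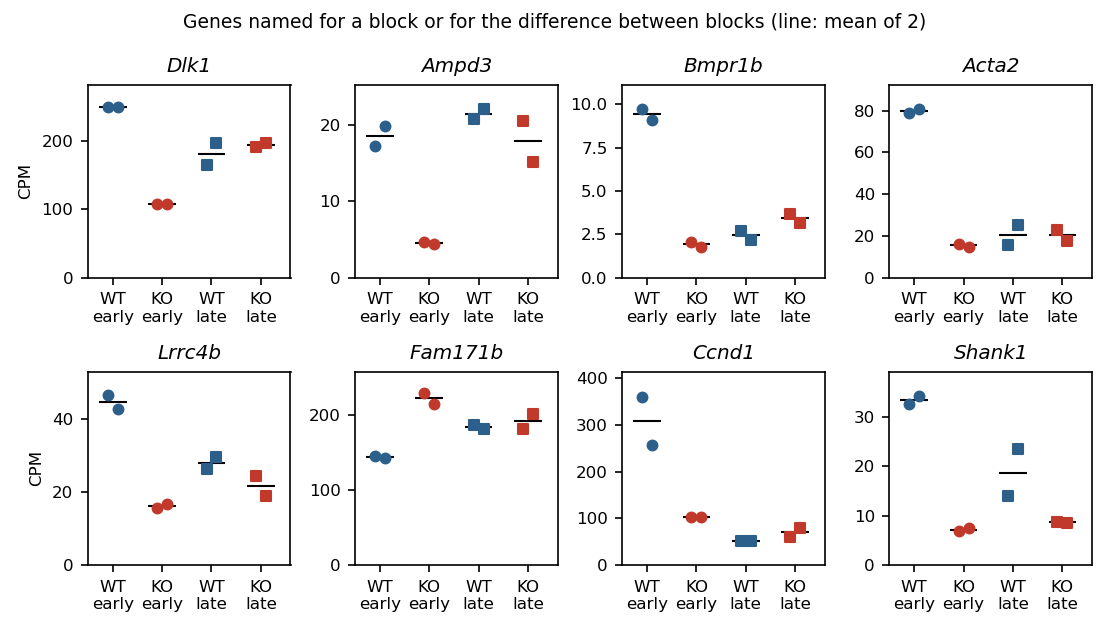
Level in CPM of 8 genes named for 1 of the blocks or for the difference between them, by library (blue wild type, red knockout; circles early, squares late; lines are means of 2). Both early wild types lie above both early knockouts for 7 genes and below them for Fam171b, while the late groups lie closer together, as for Dlk1 at 191 and 197 CPM in knockouts against 164 and 196 in wild types.

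In the late block, where all libraries carried Y-linked reads, edgeR called Kpna4 alone among 15628 genes (0.0064%), and 550 genes passed an unadjusted p under 0.05 (3.52%). DESeq2 called 6, namely Kpna4, Shank1, Fgf15, Lars2 and Mir6236, which were lower, and the cartilage collagen Col9a1, which was higher. Beside the microRNA gene Mir6236, the lowest p-values after Kpna4 belonged to Pax8, Slc30a3, Lars2 and Shank1, all lower. Slc30a3, a zinc transporter of synaptic vesicles, was at 0.0872 CPM and no reads against 0.685 and 1.9 CPM. It was lower early too, at 0.241 and 0.377 against 2.23 and 2.82 CPM. Slc30a3 reached the filter's level through the wild types alone, so that its direction was given by the filter. Lars2, the mitochondrial leucyl-tRNA synthetase, was at 1275 and 1102 against 1844 and 1798 CPM late (-0.62, edgeR adjusted p = 0.911) but at 1195 and 1357 against 1239 and 1090 early. Over all 15628 genes the early and late log2 fold changes had a Pearson r of 0.135. This is a correlation across genes, which are not independent, of comparisons that share no library.

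The knockout effect differed between the blocks for 6 of 15628 genes (0.0384%): the 4 Y-linked genes and Dlk1, with a higher late value (0.032%), and Xist with a lower one (0.0064%). The Dlk1 log2 fold change was higher in the late block by 1.32 ± 0.13 (edgeR adjusted p = 0.0394). Its size changed little when each library was left out in turn, from 1.16 to 1.42, but the call held only without WT 45 (adjusted p = 0.0269, and 0.0565 to 0.479 without each of the others). Ccnd1, the cyclin that drives entry into the cell cycle, was at 103 and 103 against 360 and 256 CPM early, and at 59.9 and 79.4 against 51.1 and 51.7 late (difference 2.02 ± 0.26, adjusted p = 0.126). Bmpr1b differed by 2.75 ± 0.30 (edgeR adjusted p = 0.0578) and Acta2 by 2.36 ± 0.32 (0.151), so that these 3 did not pass. Embryo sex differs between the knockouts of the blocks, so it cannot be told apart from the block in these differences.

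Cell cycle genes took opposite signs in the blocks. All 36 had a negative log2 fold change in the early block, with a median of -0.42, and all 36 a positive one in the late block, with a median of 0.36, so that the blocked median was -0.05. Among them 13 passed the unadjusted threshold early, all lower (11.3% of all genes), and 9 late, all higher (1.84% of all genes). The mean log2(CPM + 1) of the list was 6.40 in WT 79, 5.88 in WT 45, 5.77 in KO 81 and 5.62 in KO 42 among the early libraries. Late it was 5.09 in KO 75, which has the highest globin ratio of that block, 4.73 in KO 50, and 4.58 in both wild types. Ccne1 and Tk1, of the start and course of DNA replication, had blocked log2 fold changes of -0.38 ± 0.19 and -0.42 ± 0.23 (edgeR adjusted p = 0.61 and 0.617). With the ratio as a covariate the list's median was -0.14. Ribosomal protein genes were positive in 78 of 78 cases late, with a median of 0.15, and negative in 59 of 78 early, with a median of -0.06. Rps3 and Rps3a1 had blocked values of 0.17 ± 0.08 for both. Cholesterol synthesis genes were positive in 25 of 25 cases early, with a median of 0.30, and negative in 24 of 25 late, with a median of -0.17. Hsd17b7 and Mvd, enzymes of that pathway, had blocked values of 0.31 ± 0.12 and 0.16 ± 0.12.

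**Figure D4:**
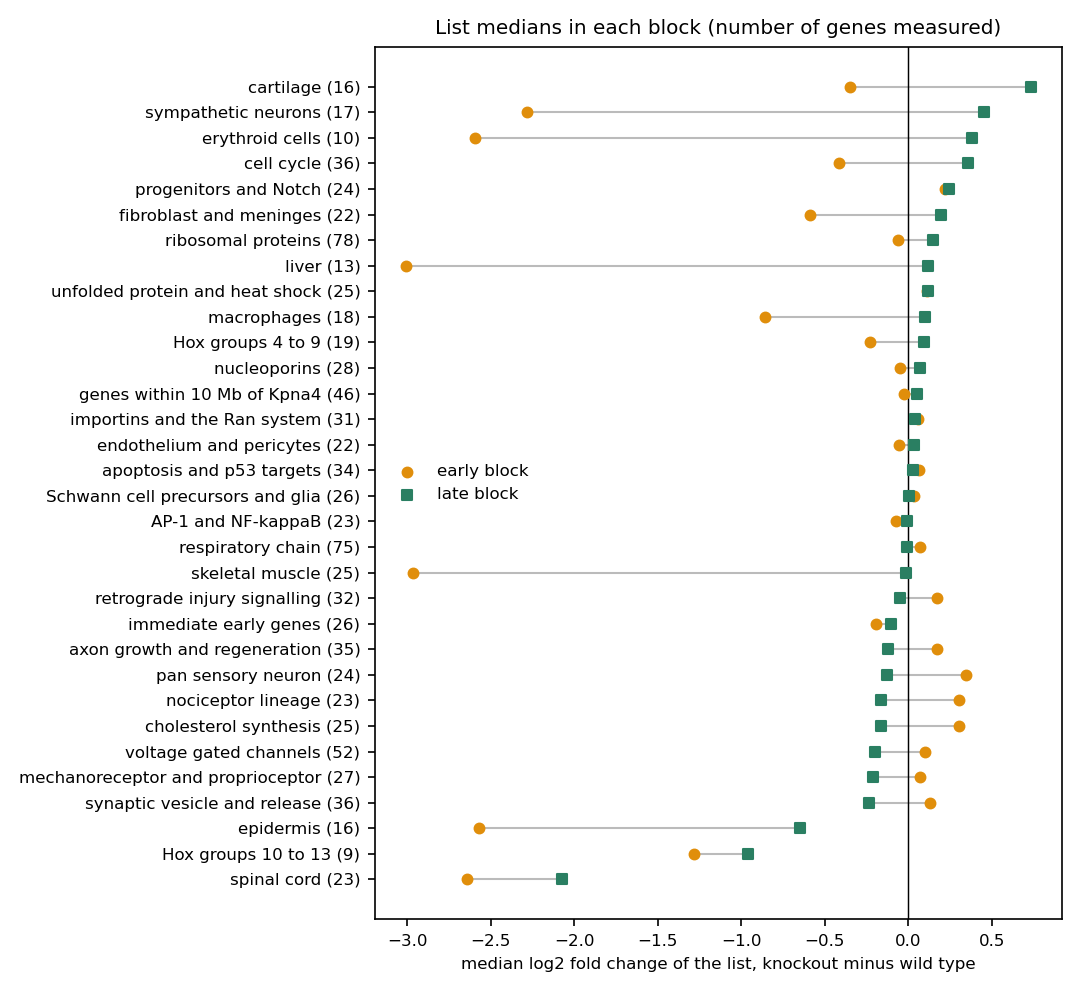
Median log2 fold change of each list, knockout minus wild type, in the early block (orange circles) and the late block (green squares), with the number of genes tested; the AP-1 and NF-kappaB row is the list of transcription factors carried into the nucleus. The medians of spinal cord, rear Hox and epidermis, in which 11, 4 and 7 genes passed the filter through the wild types alone, are those below -0.5 in both blocks, while cell cycle runs from -0.42 early to 0.36 late.

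Genes of sensory progenitors and Notch signalling had a positive median in both blocks. Of 24, 16 were positive and 8 negative with the block, with a median of 0.25 with the block, 0.22 early and 0.24 late, and 10 passed the unadjusted threshold as higher, where 3.37% of all genes did, and 1, Hes1, as lower. None passed after adjustment, and in 1 of the 24 the knockouts lay above the wild types in both blocks, a share near the 3.62% of all genes. Eya2, a transcriptional cofactor of sensory progenitors, was at 160 and 210 against 101 and 125 CPM early and at 27.3 and 69.1 against 28.1 and 22.1 late (0.82 ± 0.26, edgeR adjusted p = 0.565). Heyl, a Notch target, was at 144 and 167 against 108 and 114 CPM early and 90.6 and 104 against 90.6 and 68.2 late (0.39 ± 0.10, adjusted p = 0.565). The late excess thus lay in KO 75 rather than KO 50.

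Genes of mature sensory neurons had medians of opposite sign in the blocks, and none passed the adjusted threshold with the block. The median over 24 pan-sensory genes was 0.34 early and -0.13 late, and over 23 nociceptor genes 0.30 and -0.16. For 27 mechanoreceptor and proprioceptor genes it was 0.07 and -0.21, for 36 synaptic vesicle genes 0.13 and -0.24, and for 52 voltage-gated channel genes 0.10 and -0.20. Early, 11 pan-sensory genes were higher and 1 lower at the unadjusted threshold, which 16.7% of all genes passed in either direction. DESeq2 called 8 of the 24 higher and 1 lower early, among 107 higher and 486 lower of 15628 genes. In edgeR's early comparison 1 synaptic vesicle gene passed after adjustment, as lower. Nefm, the medium neurofilament, was at 2707, 2721, 2596 and 2965 CPM in the knockouts and 2363, 2360, 2035 and 1656 in the wild types, with no overlap, as in 0.537% of all genes in that direction (0.39 ± 0.13, edgeR adjusted p = 0.565). Lpar3, a receptor for lysophosphatidic acid, had a log2 fold change of 0.55 ± 0.16 and Shox2, a factor of touch neurons, of 0.45 ± 0.14. Whrn, a scaffold protein also found in proprioceptors, stood at -0.64 ± 0.15, the calcium channel Cacna1i at -1.10 ± 0.27, the potassium channel Kcnc2 at -1.34 ± 0.44 and the presynaptic scaffold Pclo at -0.27 ± 0.09 (all at an edgeR adjusted p of 0.565).

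**Figure D5:**
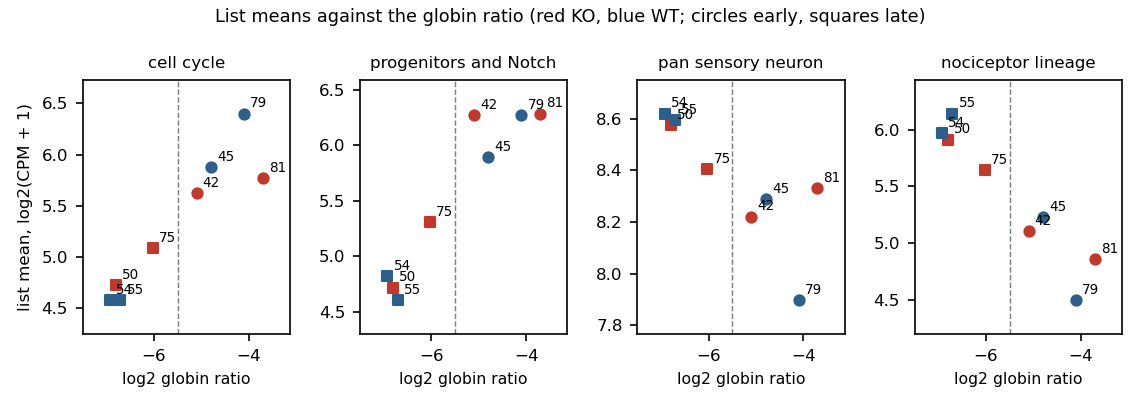
Mean log2(CPM + 1) of 4 lists in each library against the log2 globin ratio, with the cut dashed (blue wild type, red knockout; circles early, squares late; label numbers beside the points). Cell cycle genes are higher and nociceptor genes lower in the libraries with a higher ratio, and KO 75 lies between the blocks for all 4 lists.

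Genes of glial precursors were split in sign, with 14 of 26 positive and a median of 0.01. At the unadjusted threshold 6 were higher and 1 lower with the block, where 3.37% and 5.25% of all genes were. None passed after adjustment. In 3 the knockouts lay above the wild types in both blocks and in 0 below, against 3.62% and 4.41% of all genes. Erbb3, the neuregulin receptor of Schwann cell precursors, and Sox10, their defining factor, had log2 fold changes of 0.28 ± 0.09 and 0.19 ± 0.07 (edgeR adjusted p = 0.565 for both). Among macrophage genes Cx3cr1 and Itgam stood at -0.42 ± 0.20 and -0.61 ± 0.27. Of the fibroblast genes Ogn stood at -0.79 ± 0.30 and Col1a1 at -0.49 ± 0.21. The pericyte gene Pdgfrb and the endothelial Robo4 stood at -0.25 ± 0.11 and 0.28 ± 0.12. Alas2, a haem synthesis enzyme of red cells, was at 25.4 and 43.2 against 97.9 and 298 CPM early and at 78.8 and 39.3 against 53.9 and 57.6 late, and the globin Hbb-bs at 0.321 and 0.335 against 2.07 and 13.7 early and 4.66 and 1.74 against 2.65 and 4.11 late. Both were thus low in the early knockouts and overlapped late. The liver genes Apoa2 and Trf stood at -1.46 ± 0.81 and -0.78 ± 0.38.

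The rest of the nuclear transport machinery changed little. Of 31 importin, exportin and Ran genes measured, Kpna4 alone was called, 23 had a positive log2 fold change and the median was 0.05. Kpna3, the importin alpha closest to Kpna4 in sequence, was at 126, 112, 123 and 127 CPM in KO 42, 50, 75 and 81 and 105, 116, 113 and 108 in WT 45, 54, 55 and 79. Its log2 fold change of 0.14 ± 0.06 did not pass (edgeR adjusted p = 0.578). It was higher in both early knockouts and overlapped in the late block. Kpnb1 stood at 0.19 ± 0.07 and the import receptor Ipo4 at 0.09 ± 0.05 (adjusted p = 0.568 and 0.61). Of 28 nucleoporins 17 were positive, with a median of 0.02 and Seh1l and Sec13 at 0.19 ± 0.07 and 0.10 ± 0.05.

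Lists related to import, injury and stress had medians within 0.14 of 0 with the block, and none of their genes passed the adjusted threshold. AP-1 and NF-kappaB factors, known cargo of importins, had a median of -0.05 over 23 genes, with the kinase Chuk at 0.18 ± 0.07 and Tnfaip3, an NF-kappaB target, at -0.40 ± 0.19. Retrograde injury signalling had 0.05 over 32 genes, with Vim at 0.33 ± 0.12 and Pea15a at -0.24 ± 0.08. Its median was 0.17 early and -0.05 late. Axon growth had 0.00 over 35 genes, with Mycn at 0.29 ± 0.11 and Cap2 at -0.72 ± 0.21. Its blocks took opposite signs, with a median of 0.17 early, 26 genes positive, and of -0.12 late, 29 genes negative. Immediate early genes had -0.13 over 26, of which 21 were negative, with Nr4a3 at -1.22 ± 0.40 and Dusp6 at -0.20 ± 0.07. Apoptosis genes had 0.04 over 34, with Bax at 0.19 ± 0.06. Protein folding and heat shock genes had 0.14 over 25, of which 18 were positive, with Manf at 0.26 ± 0.11 and Pdia3 at 0.17 ± 0.07. Respiratory chain genes had 0.03 over 75, with Ndufs4 at 0.18 ± 0.06 and Ndufb9 at 0.10 ± 0.05.

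Neighbours of Kpna4 on chromosome 3 showed no common direction: of 46 tested within 10 Mb, 22 were positive and 24 negative, with a median of -0.02. More of them passed the unadjusted threshold than of all genes. With the block 7 of the 46 were higher and 8 lower, where 3.37% and 5.25% of all genes were. Late, 2 were higher and 5 lower, where 1.84% and 1.68% of all genes were. In 7 of the 46 the knockouts lay below the wild types in both blocks and in 3 above, against 4.41% and 3.62% of all genes. Bche (73635805 to 73708436), which encodes butyrylcholinesterase, was at 54.3, 40.8, 51.4 and 46 CPM in the knockouts and 40.5, 36.1, 31.2 and 31.5 in the wild types, without overlap. Its log2 fold change was 0.48 early and 0.45 late. Fstl5 (76074275 to 76710010), a secreted follistatin-like protein, was at 8.5, 12.3, 7.57 and 12.1 against 14.2, 16.8, 25.2 and 15.8 CPM, again without overlap, and stood at -0.54 early and -1.08 late. Neither passed (edgeR adjusted p = 0.565 with the block).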

How the data were processed

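The authors deposited raw read counts per gene symbol for 16 polyA RNA-seq libraries, and 8 were analysed here. Per the submitters' processing notes the build mm10 and tools including TopHat2 2.0.10, HTSeq 0.6.1p1 and DESeq2 1.6.3 were used. Annotation and strand setting: not given in the sources used here. Reads of overlapping or antisense genes cannot be told apart. A normalised table was not used.

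Genes were kept with filterByExpr (count of 10, total of 15) on the genotype and block cells, leaving 15628 of 24421 symbols. For the covariate model and the model without the block the filter used genotype alone, leaving 15096. Counts were scaled by TMM and tested with edgeR 4.0.16 (R 4.3.3) quasi-likelihood fits: block plus knockout for the blocked comparison, and the 4 cells for each block and their difference, with 5 and 4 residual degrees of freedom. P-values were Benjamini-Hochberg adjusted over all genes, threshold 0.05. CPM use TMM-scaled library sizes in gene values, and plain totals for Y-linked sums, the Xist range and the filter's level. Alternatives used DESeq2 1.42.0 and limma 3.58.1. Scripts were tested on simulated data. No 2 libraries agreed within sampling noise. Coordinates are RefSeq GRCm38.p6, matched to 99.5% of symbols.

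Members and lists were chosen with earlier results of these data known. Some genes that the naming rule takes are not reported here. Named genes are Kpna4, the lowest p-values of each comparison (mean of at least 1 CPM among called genes), and the 2 lowest per list; predicted genes, Xist and Y-linked genes are outside this rule and, where named, were chosen after their values were seen. The same holds for genes named for the covariate model or DESeq2, Meis1, Barhl2, Hes1, Mir6236, Col9a1 and the spinal cord examples.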

Additional observations from a re-analysis of the deposited data

Results flagged for a closer look

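In 6 of the 246 groups of 4 libraries examined, 1 library stood apart from the other 3 by more than Dixon's limit, on the log2(CPM + 1) scale. Chance alone sets apart about 1 group in 20. Among the knockouts, Comp was high in KO 75 (2.478), Slc18a2 was high in KO 81 (3.996), Hoxc12 was the only one with reads in KO 42 (0.1113), Krt17 was low in KO 42 (0.2637) and Trp63 was low in KO 81 (0.1161). Among the wild types, Col1a1 was high in WT 55 (9.691). KO 75 has the highest globin ratio of the late libraries and KO 81 the highest of all.

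For 6 genes the test of the late minus the early knockout effect passed (edgeR adjusted p from 0.000166 to 0.0394). The log2 difference was 9.722 for Ddx3y, 8.619 for Eif2s3y, 10.19 for Kdm5d, 9.932 for Uty and -9.047 for Xist, genes that follow the sex of the 2 early knockouts. It was 1.319 for Dlk1, which lies on chromosome 12. Leaving out 1 library at a time, the Dlk1 difference ran from 1.16 to 1.42, and its edgeR adjusted p was 0.0269 without WT 45 and 0.0565 to 0.479 without each of the other 7.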

How the results depend on the processing

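Kpna4 kept its direction and its call in every setting run of the blocked comparison, with log2 fold changes from -6.58 to -6.32 and an edgeR, DESeq2 or limma adjusted p of at most 7.2e-05. With the block, 1 gene was called. The count was 13 with the globin ratio as a covariate, 71 with DESeq2, 2 without KO 81 and WT 79, and 1 to 3 leaving out each library, with Robo3 and Prdm13 added without WT 45 and Robo3 without WT 79. In the early block the count of 29 became 139 without the filter, 593 with DESeq2, 17 from the early libraries alone, and 6 to 1045 leaving out each library. In the late block it became 6 with DESeq2 and 1 to 5 leaving out each library, 5 without KO 50 and 2 without WT 55. For the difference between blocks the count of 6 became 114 with DESeq2 and 4 to 168 leaving out each library. For the covariate model the count of 13 became 59 with DESeq2, 2 with limma-voom, 2 without KO 81 and WT 79, and 1 to 10 leaving out each library. The cause of these changes was not tested, apart from the fewer samples where libraries were left out.

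Over the spinal cord genes each setting tested, part of them past its filter through the wild types alone, the median was negative in every setting run, from -2.77 without KO 81 to -1.87 without KO 42 leaving out each library, at -2.56 over 23 genes with all 8 wild types and the block, and at -2.30 over the 7 genes that passed 1 CPM in 4 libraries.

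A term for Y-linked reads beside the block leaves the knockout effect to the late libraries, and these log2 fold changes then turned sign: Bmpr1b 0.472, Ccnd1 0.431, Ccne1 0.049, Cx3cr1 0.014, Dlk1 0.098, Mvd -0.092, Slc18a1 0.073, Tk1 0.00616, Ddx3y 0.136, Eif2s3y 0.179, Kdm5d 0.445, Uty 0.315 and Xist -0.226. With all 8 wild types and that term Eif2s3y was 0.024, Kdm5d 0.254 and Uty 0.102, and with all 8 and the block alone Kdm5d was 0.048 and Xist -0.185. Foxp2 was -0.065 without the block, -0.050 with the covariate, -0.087 and -0.088 with all 8 wild types without and with the Y-linked term, -0.026 with limma-voom, -0.269 with the cut at -6.5, and from -0.148 to 0.264 leaving out each library. With that cut Ogn was 0.067. Hoxb9 was 0.071 without KO 81 and WT 79, and -0.796 to 0.048 leaving out each library, positive without WT 79.

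The cut at -6.5, the split of lists by filter, the sum without Foxp2, the covariate model's other settings and the removal of KO 81 with WT 79 were chosen after seeing the data. The planned ratio of Hba-x to the adult alpha globins was not run, since Hba-a1 and Hba-a2 had 0 counts in every library. No paired analysis was possible because no replicate number is shared between the knockouts and the wild types. Genes under about 1 CPM rest on few reads, and there a difference may not be detectable at this depth.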
